A study of Caenorhabditis elegans with 8 samples.

Results

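Homeobox genes of Caenorhabditis elegans were followed from dauer larvae into dauer exit. The set holds every gene of the array whose symbol is ceh followed by a number, 39 genes in all, and 20 further homeobox genes with other names, such as the Hox genes lin-39 and mab-5 and the neuronal regulators unc-86 and mec-3. Together they are 59 of the 15077 genes measured. They were chosen by name and not by their values, 39 of them have 1 probe on the array, and each of the 59 has a value on all 8 arrays.

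Homeobox genes encode transcription factors that bind DNA through the homeodomain, a short fold of helices. In worms the Hox genes set identity along the body axis, while LIM, POU and paired-like homeodomain proteins fix the fates of single neuron types and often stay on in those neurons for life. The dauer is the non-feeding, stress-resistant larva that forms under crowding and starvation. It carries a nervous system that is wired differently from that of other larvae, and it resumes feeding and development once food is found.

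All worms were wild-type N2 Bristol, with no transgene or mutation. The dauers (4 samples) came from liquid culture and were purified before RNA extraction. For dauer exit (4 samples), purified dauers were placed on plates with bacterial food and collected after 12 h. Each sample shared an array with RNA of mixed-stage plate cultures (mix-stage), the common reference, and the dyes were swapped within each stage: dauer replicates 1 and 2 and dauer-exit replicates 1 and 4 carried their own RNA in Cy5 and the others in Cy3. Samples are described in the labels as biological replicates. Values below are log2 ratios of a sample's own RNA over mix-stage RNA: a value of 1 is a doubling, and 0 is the mix-stage level. Equal amounts of total RNA were labelled, so a ratio is not an amount per worm, and in RNA of whole worms fewer cells of a type and less RNA per cell cannot be told apart.

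The stage labels were checked on genes known to mark dauers. The small heat shock gene hsp-12.6 lay 4.80 above mix-stage in dauers and at -0.50 in dauer exit, and the metallothionein gene mtl-1 at 1.36 and -3.27, whereas the superoxide dismutase gene sod-3 was at -0.07 in dauers and at -1.29 in dauer exit. Over all genes, arrays of one stage correlated at 0.46 to 0.79 and arrays of different stages at 0.11 to 0.61.

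Between dauers and dauer exit, the homeobox genes differed little. One of the 59, ceh-48, was called (Benjamini-Hochberg adjusted p of 0.05 or less over all genes, limma), which is 1.69% of them, against 4.01% of all genes measured. The call was upward, as for 2.13% of all genes, and no homeobox gene was called lower, against 1.88% of all genes. The median difference of the homeobox genes was 0.14, with 38 above 0 and 21 below, and that of all genes was 0.03. A difference of 1 or more in either direction was found for 1.69% of the homeobox genes and for 12.0% of all genes. At an unadjusted p under 0.05 there were 6 homeobox genes (10.2%) against 15.5% of all genes. The median standard error (SE) of a homeobox gene was 0.29 with 4 arrays per stage.

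**Figure D1:**
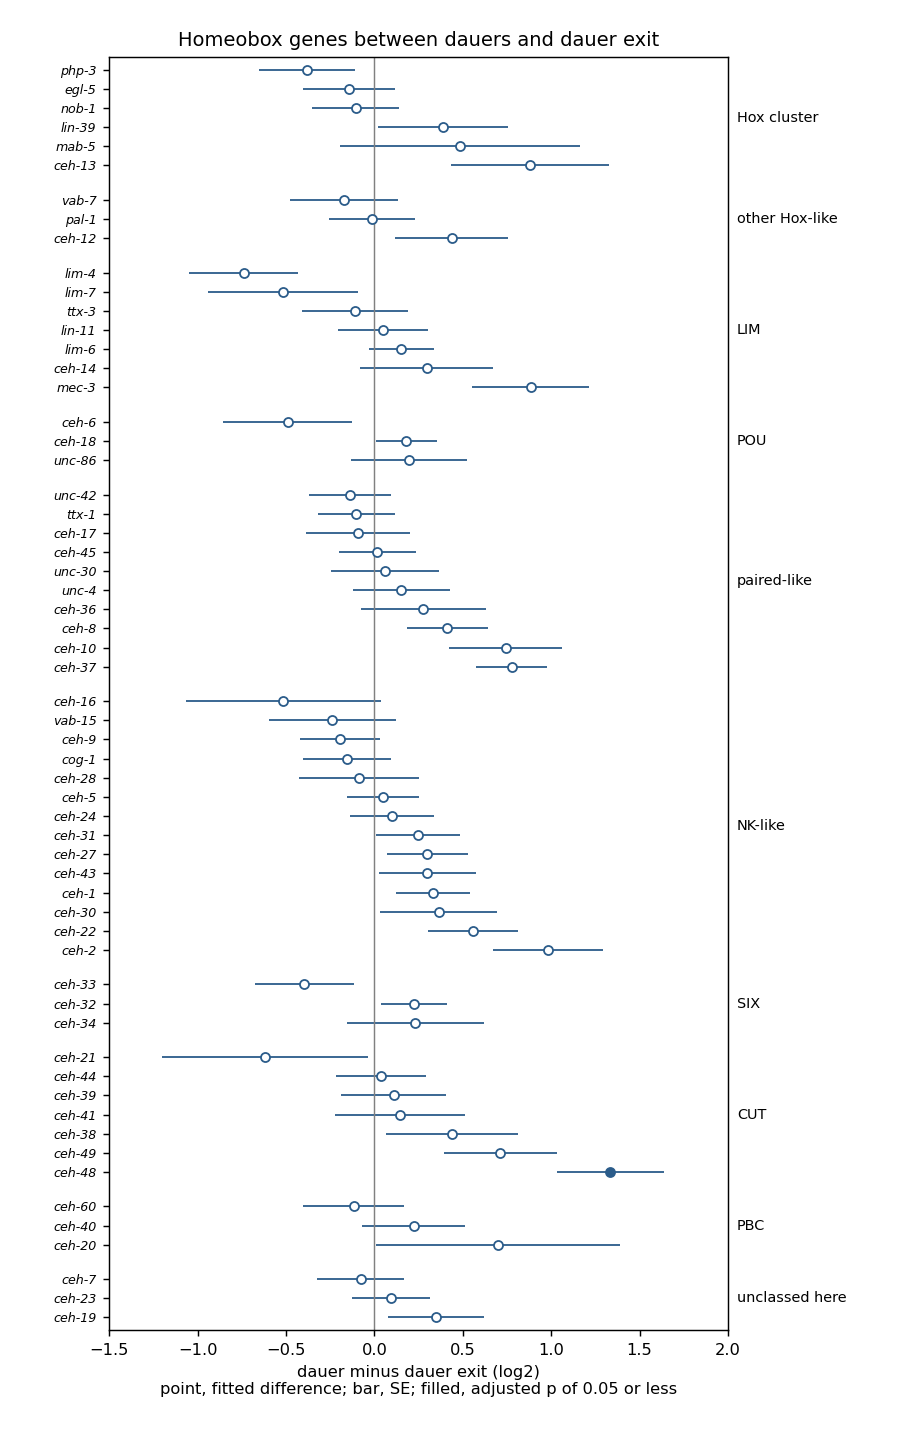
Fitted difference of each of the 59 homeobox genes between dauers and dauer exit (x axis, log2; bars, SE), arranged by homeodomain class. The differences run from -0.74 for lim-4 to 1.33 for ceh-48, and ceh-48 is the filled point with an adjusted p under the threshold.

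The called gene, ceh-48, encodes a protein of the ONECUT type, with a CUT domain beside the homeodomain, and genes of this class are known to act in neurons at large. In dauers its log2 ratios were 1.52, 0.31, 1.27 and 0.92 in replicates 1 to 4. In dauer exit they were -0.58, -0.36, -0.54 and 0.16. Every dauer array thus lay above every dauer-exit array, although dauer replicate 2 came close to dauer-exit replicate 4. The difference was 1.33 (SE 0.30), or 2.52-fold, with an adjusted p of 0.042. It was present in both dye orientations, at 1.13 among arrays with own RNA in Cy5 and at 1.54 among those in Cy3. The call was marginal: it was lost in 13 of the 20 alternative analyses, in which the difference ranged from 1.13 to 1.57 and the adjusted p from 0.016 to 0.49. Among these it was lost without dauer replicate 1, 3 or 4 (adjusted p of 0.097, 0.082 and 0.11) and without dauer-exit replicate 1, 2 or 3 (0.12, 0.11 and 0.12), and was retained without dauer replicate 2 (0.016) or dauer-exit replicate 4 (0.049).

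Against mix-stage, ceh-48 was 1.00 higher in dauers (SE 0.21, adjusted p = 0.0093), which is a 2.01-fold ratio. This call was lost only when the Cy5 arrays were used alone (0.92, adjusted p = 0.19). In dauer exit it stood at -0.33 with an adjusted p of 0.47. Genes used throughout the nervous system were looked at beside it. Of 18 such genes, coding for synaptic vesicle and neuropeptide processing proteins among others, only ric-19 was called between the stages (2.15 higher in dauers, adjusted p = 0.025) and against mix-stage in dauers (1.38). At an unadjusted limma p under 0.05, ric-19, snt-1, egl-21, ric-4, egl-3, unc-104 and snb-1 passed between the stages, each higher in dauers. Of all genes, 15.5% passed in either direction. The median difference of the 18 was 0.45, with 14 above 0. Their median on single arrays ran from -0.31 to 0.51 in dauers and from -0.37 to -0.07 in dauer exit, and its part in the value of ceh-48 was not tested.

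Of the other CUT genes, none was called between dauers and dauer exit. The nearest was ceh-49, with ratios of -0.41, 0.54, -0.52 and -0.50 in dauers and -1.58, -0.76, -0.67 and -0.72 in dauer exit. No dauer array overlapped a dauer-exit array, yet the stages were only 0.71 apart (SE 0.32, adjusted p = 0.32). Dauer replicate 2 stood well above the rest of its group and dauer-exit replicate 1 well below. Against mix-stage, ceh-49 was called lower in dauer exit, at -0.93 (SE 0.22, adjusted p = 0.030), and this was lost when any of the dauer-exit replicates 1, 2, 3 or 4 was left out (adjusted p of 0.12, 0.096, 0.063 and 0.078), within either dye, and after centring each array on its median (0.062).

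The remaining CUT genes were ceh-38 (0.44), ceh-41 (0.14), ceh-39 (0.11), an X-linked signal in sex determination, ceh-44 (0.04), and ceh-21 (-0.62). For ceh-21 the value rested on dauer-exit replicate 1, at 2.36, where both of its probes were high (1.95 and 2.77), while the other dauer-exit arrays lay between -0.32 and 0.15. For ceh-44, the Cux-type member, 2 of its 3 probes carry an accession that RefSeq now gives to cone-1. With the 1 remaining probe, an alternative chosen after seeing the data, ceh-44 was 0.37 higher in dauers than in dauer exit, and no count of called homeobox genes changed.

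Compared with mix-stage, 4 homeobox genes were called in dauers, 6.78% of the 59 against 18.5% of all genes. The 3 genes ceh-48, mec-3 and ceh-2 were higher, or 5.08% against 4.92% of all genes, and pal-1 was lower, or 1.69% against 13.6%. At an unadjusted p under 0.05 there were 10 homeobox genes (16.9%, against 28.6%). The median of the homeobox genes was 0.09 and that of all genes -0.05. Both this comparison and that of dauer exit with mix-stage use the mix-stage RNA as their only control, and the spread among mix-stage cultures is not in their p-values.

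The LIM homeobox gene mec-3 is the gene that, with unc-86, specifies the touch receptor neurons. Its ratios were 0.61, 0.67, 1.20 and 1.44 in dauers and 0.79, 0.25, -0.07 and -0.58 in dauer exit. All dauer arrays lay above the mix-stage level, and the stages overlapped through dauer-exit replicate 1. The mean over dauers was 0.98 (SE 0.23, adjusted p = 0.016), a 1.97-fold ratio, and each of its 4 probes was above 0 in dauers, at 0.78 to 1.15. The call was lost without dauer replicate 4 (0.83, adjusted p = 0.083), among Cy5 arrays alone (0.64, adjusted p = 0.33) and when mec-3 was taken from its probe of largest mean absolute ratio (0.78, adjusted p = 0.50). That probe read 3.50 on dauer-exit replicate 1, where the other 3 read between -0.43 and 0.13. Between the stages the difference was 0.88 (SE 0.33, adjusted p = 0.22).

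Partner and downstream genes of mec-3 had other values. The POU gene unc-86, which acts upstream of mec-3, was at 0.10 in dauers and -0.10 in dauer exit. Of 9 genes known for touch receptor neurons, 3 were called lower than mix-stage in dauers: the tubulin genes mec-7 (-3.01) and mec-12 (-2.87) and the tubulin acetyltransferase gene mec-17 (-1.88). In dauer exit mec-12 (-1.54) and mec-17 (-1.83) were called lower. The shares of all genes called lower than mix-stage were 13.6% in dauers and 9.07% in dauer exit. The channel genes mec-4 and mec-10 and the channel-associated genes mec-2 and mec-6 were not called in any comparison, with dauer values of 0.08, 0.30, 0.16 and 0.61. None of the 9 was called between the stages by limma, and 2 had an unadjusted p under 0.05: mec-7 (difference -2.26, adjusted p = 0.16) and mec-12 (-1.32, adjusted p = 0.20).

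The NK-like gene ceh-2, related to the Emx genes of vertebrates, read 0.19, 1.32, 0.71 and 1.37 in dauers. In dauer exit it read 0.14, -0.49, -0.20 and 0.22. Dauer replicate 1 fell among the dauer-exit arrays, and the other 3 dauer arrays lay above all of them. In dauers ceh-2 was 0.90 higher than mix-stage (SE 0.22, adjusted p = 0.018). That call was lost without dauer replicate 2 (adjusted p = 0.081) or 4 (0.093) and within either dye. Its difference from dauer exit was 0.98 (SE 0.31, adjusted p = 0.14), the second of the 59 in size.

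The caudal gene pal-1, needed for posterior fates in the embryo, was lower than mix-stage in both stages. Its ratios were -1.17, -0.84, -0.89 and -0.19 in dauers and -0.82, -0.60, -0.76 and -0.85 in dauer exit. No array of either stage reached the mix-stage level, and all 8 of its probes were below 0 in both stages. The mean was -0.77 in dauers (SE 0.17, adjusted p = 0.011) and -0.76 in dauer exit (adjusted p = 0.023), and the stages differed by -0.01. In dauers the call was lost without dauer replicate 1 (-0.64, adjusted p = 0.057), among Cy3 arrays alone, and when each probe was tested on its own. In dauer exit it was lost without any of the dauer-exit replicates 1 to 4 (adjusted p of 0.081, 0.076, 0.074 and 0.098), within either dye and when each probe was tested on its own.

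Mix-stage plates were grown from young adults, and maternal pal-1 RNA is known to be loaded into embryos. Of 16 genes of oocytes and early embryos, 10 were called lower than mix-stage in dauers and 9 in dauer exit, led by the yolk receptor gene rme-2 (-4.78 in dauers) and the translational regulator gene puf-5 (-4.60 in dauer exit), and none between the stages by limma (0 at an unadjusted p under 0.05). Among all genes, 13.6% were called lower than mix-stage in dauers and 9.07% in dauer exit. The median of the 16 on single arrays ran from -1.19 to -0.59 in dauers and from -1.14 to -0.84 in dauer exit. Of 12 measured genes of zygotic embryos, only the T-box gene tbx-9 was called, lower in dauers (adjusted p = 0.0081). The part of either group in the values of pal-1 was not tested.

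**Figure D2:**
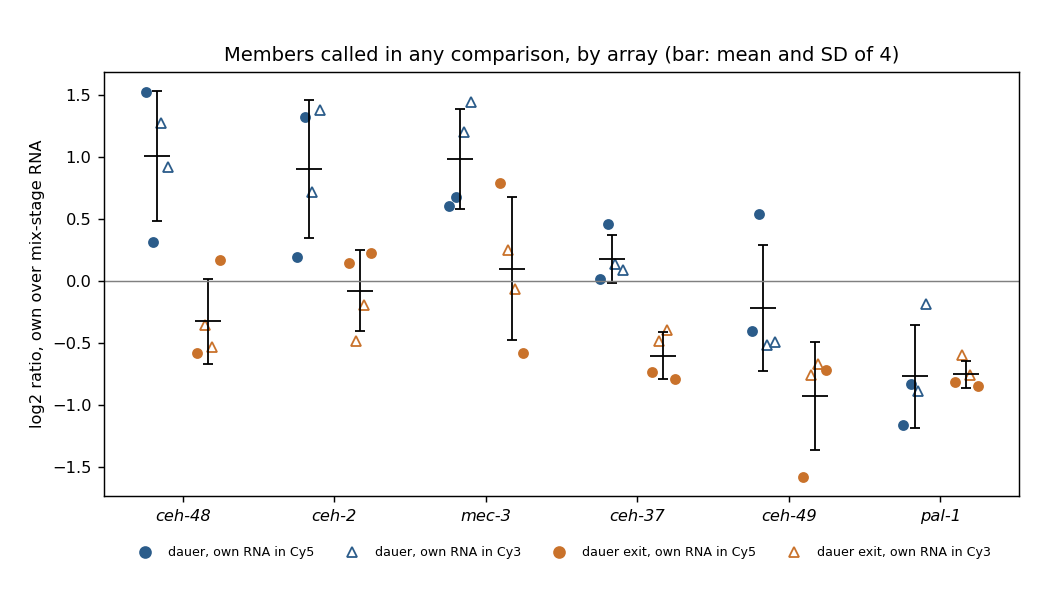
Log2 ratios over mix-stage RNA (y axis) of the 6 homeobox genes called in any comparison, for each array (filled circles, own RNA in Cy5; open triangles, own RNA in Cy3), with the mean and SD of 4 arrays per stage. Dauer and dauer-exit arrays separate for ceh-48, ceh-37 and ceh-49, overlap for ceh-2 and mec-3, and lie at the same level, below 0, for pal-1.

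In dauer exit, 3 homeobox genes were called against mix-stage (5.08%, against 9.52% of all genes): ceh-37, ceh-49 and pal-1. All 3 were lower, as were 9.07% of all genes. No homeobox gene was called higher, against 0.458% of all genes, and at an unadjusted p under 0.05 there were 5 homeobox genes in either direction (8.47%, against 20.8%). The median of the homeobox genes was -0.04 and that of all genes -0.08.

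The Otx-type gene ceh-37, which acts in the AWB olfactory neurons, stood on opposite sides of mix-stage in the 2 stages. Its ratios were 0.01, 0.45, 0.13 and 0.09 in dauers and -0.74, -0.49, -0.40 and -0.80 in dauer exit. The stages did not overlap, and both of its probes were above 0 in dauers (0.10 and 0.24) and below 0 in dauer exit (-0.36 and -0.85). The difference was 0.78 (SE 0.20), or 1.71-fold, and its adjusted p of 0.071 missed the threshold. Relative to mix-stage, dauer exit was at -0.60 (SE 0.14, adjusted p = 0.028). That call was lost without dauer-exit replicate 1, 2 or 4 (adjusted p of 0.10, 0.090 and 0.13), within either dye and after centring (-0.50, adjusted p = 0.076). With each probe tested alone, the median adjusted p of its probes also missed the threshold. The other Otx-type genes, ttx-1 of the AFD thermosensory neurons and ceh-36 of the AWC and ASE sensory neurons, differed by -0.10 and 0.28 between the stages.

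In 5 of the 59 homeobox genes (8.47%) no dauer array overlapped a dauer-exit array, against 9.55% of all genes. Besides ceh-48, ceh-49 and ceh-37 these were the POU gene ceh-18, known for its part in oocyte signalling, and the paired-like gene ceh-8. The dauer values of ceh-18 were between -0.12 and 0.04 and its dauer-exit values between -0.27 and -0.20, so the groups separated by a small distance (difference 0.18, adjusted p = 0.75). For ceh-8 the dauer arrays were within 0.11 to 0.22, and the dauer-exit arrays ran from -0.77 to 0.10 (difference 0.41, adjusted p = 0.48).

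None of the 6 Hox cluster genes was called in any comparison. At the unadjusted p under 0.05, ceh-13 and nob-1 passed in dauers against mix-stage, as did 28.6% of all genes. The anterior gene ceh-13, the labial relative, was the furthest from mix-stage, with dauer ratios of 0.18, 1.45, 1.57 and 0.73 and dauer-exit ratios of -1.03, 0.84, 0.28 and 0.32. All its dauer arrays were above 0, and its stages overlapped. It was 0.98 above mix-stage in dauers (SE 0.32), with an adjusted p of 0.061. It was called in 4 of 19 alternatives (after centring, with a dye term, and without dauer or dauer-exit replicate 1) and not in the other 15, and the adjusted p ranged from 0.026 without dauer-exit replicate 1 to 0.33 within Cy5 arrays. The difference between the stages was 0.88 (SE 0.45, adjusted p = 0.41).

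The mid-body gene lin-39, which acts in vulval precursor cells and ventral cord neurons, differed by 0.39 (SE 0.37, adjusted p = 0.74). The gene mab-5, which acts in posterior cells and in migrating neuroblasts, was the Hox gene whose arrays differed most within a stage. In dauers it read -0.24 and -1.19 on the 2 Cy5 arrays and 1.66 and 1.33 on the 2 Cy3 arrays. Accordingly the difference between the stages was -0.38 among Cy5 arrays and 1.35 among Cy3 arrays, and 0.48 over all (adjusted p = 0.85). Its mean difference between the dyes over both stages, -1.35, had an adjusted p of 0.25, and among Cy3 arrays alone mab-5 was called higher than mix-stage in dauers (1.49, adjusted p = 0.017).

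The 3 posterior genes related to Abdominal-B were egl-5 (-0.15), php-3 (-0.38) and nob-1 (-0.11), with adjusted p of 0.88, 0.63 and 0.92. In dauers php-3 also split by dye, at -0.70 and -0.88 in Cy5 and 0.05 and 0.06 in Cy3. For nob-1 all dauer arrays were below mix-stage, between -0.53 and -0.25, while its 2 probes stood at -0.89 and 0.10. The 6 probes of egl-5 lay on both sides of 0 between the stages, from -0.42 to 0.19.

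**Figure D3:**
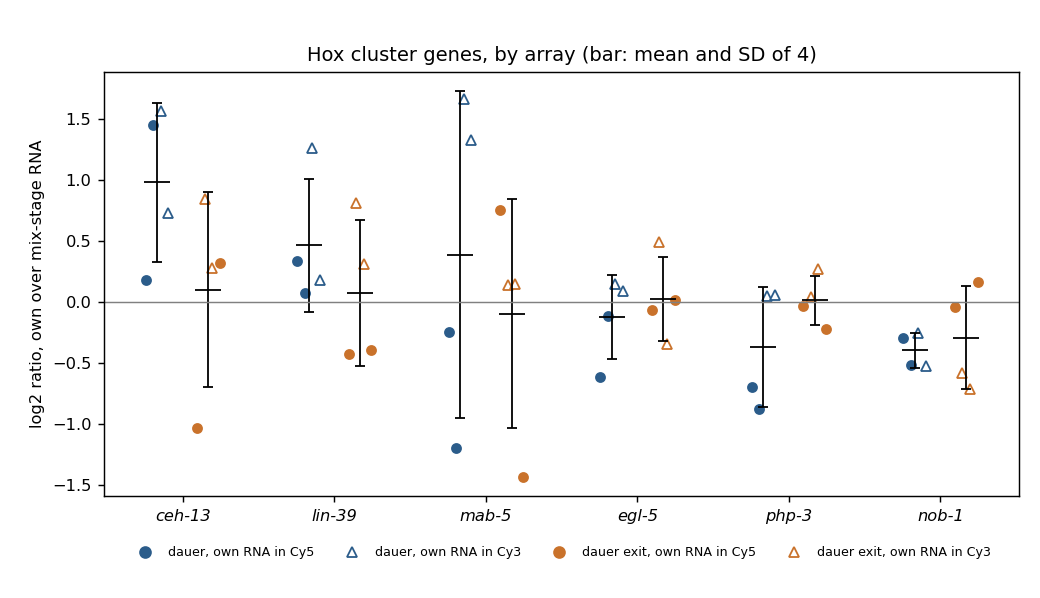
Log2 ratios over mix-stage RNA (y axis) of the 6 Hox cluster genes on each array (filled circles, own RNA in Cy5; open triangles, own RNA in Cy3; bars, mean and SD of 4 arrays). The stages overlap for each gene, and the dauer arrays of mab-5 fall into -1.19 to -0.24 in Cy5 and 1.33 to 1.66 in Cy3.

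Near the Hox genes in the family, the even-skipped relative vab-7 was at 0.41 in dauers and 0.58 in dauer exit, with all dauer-exit arrays above 0 (adjusted p = 0.15). The Mnx-type gene ceh-12, which acts in motor neurons, had the largest difference between the stages among these relatives, at 0.44 (adjusted p = 0.64). All of its dauer arrays were above 0, and in dauer exit replicate 3 stood at -1.14.

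Among the LIM genes other than mec-3, lim-4 had the most negative difference of all 59, at -0.74 (SE 0.31, adjusted p = 0.28). It acts in the AWB and SMB neurons. Its dauer ratios were -0.21, -0.09, -0.32 and -1.09 and its dauer-exit ratios 0.40, -0.34, 0.71 and 0.47, so all dauer arrays were below mix-stage and dauer-exit replicate 2 overlapped them. The Islet relative lim-7 was also below mix-stage on every dauer array, at -1.68, -0.84, -0.20 and -0.56 (mean -0.82, adjusted p = 0.097). The others were ceh-14 (0.30), lim-6 (0.15), lin-11 (0.05) and ttx-3 (-0.11). For ttx-3, the terminal selector of the AIY interneurons, dauer exit was above 0 on every array (0.12 to 0.52).

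Among the POU genes ceh-6, which acts in the excretory cell, had the largest difference, -0.49 (adjusted p = 0.65). Its dauer-exit arrays read 0.51, 0.36, 0.62 and -1.06. The paired-like genes ranged from -0.14 for unc-42, of the command interneurons, to 0.78 for ceh-37. The gene unc-30, the Pitx relative of GABA motor neurons, was at 0.06.

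Genes tied to the neurons or the transmitter of these neuronal regulators were mostly level. Of 5 GABA genes, unc-47, the vesicular GABA transporter, was called higher than mix-stage in dauers (0.76, adjusted p = 0.037). The 3 guanylyl cyclase genes of AFD, gcy-8, gcy-18 and gcy-23, were called in no comparison and differed by 0.24, 0.18 and 0.07 between the stages. Of 5 genes known from AIY, kal-1 was called lower than mix-stage in dauers (-1.38) and in dauer exit (-1.10). In these 3 groups limma called no gene between the stages, and none had an unadjusted p under 0.05.

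The 14 NK-like genes had a median difference of 0.17, with 9 above 0. Next to ceh-2 came the Nkx2-type gene ceh-22, a regulator of pharyngeal muscle. It read -0.03, 0.91, 0.84 and 0.62 in dauers and between -0.22 and 0.18 in dauer exit. Dauer replicates 2, 3 and 4 lay above all dauer-exit arrays. It was 0.58 above mix-stage in dauers (SE 0.18, adjusted p = 0.051), and all 3 of its probes were above 0 there. Between the stages it differed by 0.56 (adjusted p = 0.34). The pharyngeal muscle genes measured beside it were all called higher than mix-stage in dauers, 4 of 4, including the myosin gene myo-2 (2.26) and the troponin genes tnc-2 (2.42), tni-4 (2.45) and tnt-4 (1.23). Between the stages myo-2, tnc-2 and tni-4 were called higher in dauers (2.52, 3.07 and 2.72). Among all genes, 4.92% were called higher in dauers than mix-stage and 2.13% higher than dauer exit. On single arrays the median of these 4 genes was 1.34 to 2.98 in dauers and -0.68 to -0.07 in dauer exit, and its relation to ceh-22 was not tested.

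Other NK-like genes were level or scattered. The engrailed relative ceh-16 differed by -0.52 with an SE of 0.55. It read -0.88 and -0.65 on Cy5 dauer arrays, 0.91 and 0.66 on Cy3 dauer arrays, and 1.86 on dauer-exit replicate 1. The BarH genes ceh-30 and ceh-31, the former acting in the survival of male-specific neurons, were at 0.36 and 0.25. The Distal-less relative ceh-43 was at 0.30, and vab-15, the Msx relative, was at -0.24 with its 2 probes at -0.91 and 0.44.

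The 3 relatives of the fly gene sine oculis were ceh-34 (0.23), ceh-32 (0.22) and ceh-33 (-0.40, the largest of the class, adjusted p = 0.63). Among the PBC genes, partners of Hox proteins on DNA, ceh-20 differed by 0.70 with the largest SE of the 59, 0.69 (adjusted p = 0.76). Its dauer replicate 2 stood at -2.35 while the other dauer arrays were at 0.73, 1.04 and 0.47, and all its dauer-exit arrays were below 0 (-1.45 to -0.26). Without a class here were ceh-19 (0.35), ceh-23 (0.09) and ceh-7 (-0.08). All 4 dauer-exit arrays of ceh-19 lay between -0.35 and -0.15.

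There were 7 pairs of homeobox genes that neighbour each other in the RefSeq gene table. In 4 both genes had a difference of the same sign: lin-39 and ceh-13, php-3 and nob-1, ceh-30 and ceh-31, and ceh-36 and ceh-37. In the other pairs the signs were opposite, as for ceh-34 (0.23) and ceh-33 (-0.40), the CUT genes ceh-41 (0.14) and ceh-21 (-0.62), and ceh-18 (0.18) and lim-4 (-0.74). Of the genes in these pairs, only ceh-37 was called in a comparison, and none between the stages. Over all 59 homeobox genes 38 differences were above 0 and 21 below, so unrelated genes also often share a sign.

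Across arrays, all 4 dauer arrays were above mix-stage for 11 homeobox genes (18.6%, against 10.0% of all genes) and below it for 6 (10.2%, against 21.6%). In dauer exit the counts were 3 above (5.08%, against 5.88%) and 8 below (13.6%, against 24.1%). Within both dyes, dauers exceeded dauer exit for 27 homeobox genes (45.8%, against 30.7% of all genes) and fell below it for 10 (16.9%, against 25.3%), and the sign differed between the dyes for 22 (37.3%, against 44% of all genes). No difference between the dyes was called for any gene by limma. At an unadjusted p under 0.05, 2791 of the 15077 genes passed, and 8 of the 59 homeobox genes. The spread over the homeobox genes was narrow, with an SD over genes of 0.43 to 0.64 on each array against 0.76 to 1.07 for all genes. Whether this goes with weaker probe signal was not tested, since signal intensities were not used here, and genes too dim to measure cannot be separated from unchanged ones.

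**Figure D4:**
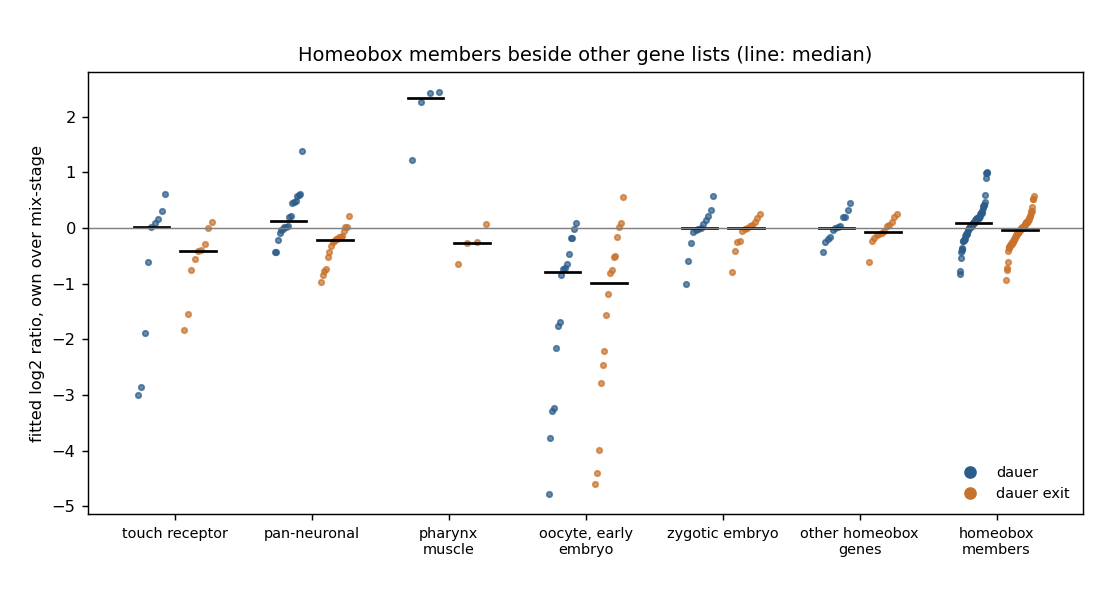
Fitted log2 ratios over mix-stage RNA (y axis; line, median) of single genes in dauers and dauer exit for the 59 homeobox genes and the lists of touch receptor, pan-neuronal, pharyngeal muscle, oocyte and early embryo, zygotic embryo and other homeobox genes. The homeobox genes lie between -0.93 and 1.00, while oocyte genes reach -4.78 and the 4 pharyngeal muscle genes 1.23 to 2.45 in dauers.

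The 20 homeobox genes with several probes gave a view of the error of single probes. For 8 of them, all probes were on one side of 0 in the difference between the stages, and for 12 they were on both sides. Among the genes on one side were mec-3 (4 probes, 0.19 to 1.40), ceh-37 (0.60 and 0.95) and ceh-22 (3 probes, 0.33 to 0.95). The gene ceh-60, a PBC gene that acts in yolk protein production, had probes at -1.03 and -0.04 in dauers and -0.93 and 0.10 in dauer exit, and only the first of these is matched to ceh-60 by accession. The 8 probes of pal-1 carry that symbol in the platform annotation alone.

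**Figure D5:**
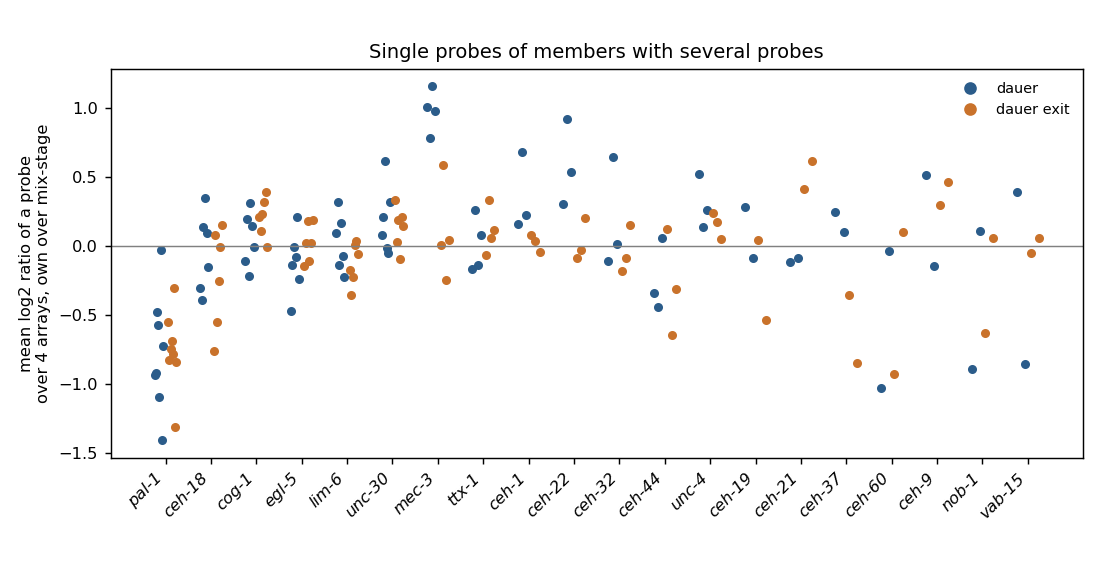
Mean log2 ratio over mix-stage RNA (y axis) of single probes in dauers and dauer exit, over 4 arrays, for the 20 homeobox genes with several probes. Every probe of pal-1 is below 0 in both stages and every probe of mec-3 above 0 in dauers, while the probes of ceh-18 and egl-5 lie on both sides.

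Homeobox genes that the naming rule left out were examined in the same way. Of 18 such genes 12 were measured, among them the Meis relative unc-62, the Pax6 gene vab-3 and the repressor gene zag-1. None was called in any of the 3 comparisons, their median difference between the stages was 0.13, and they ran from -0.45 for dsc-1 to 0.55 for vab-3. At an unadjusted p under 0.05 only zag-1 passed, lower than mix-stage in dauer exit (-0.62, adjusted p = 0.19).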

How the data were processed

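RNA of dauers and of dauer exit was measured on 2-colour arrays against mix-stage RNA. The deposited table holds log2 Cy5/Cy3 ratios that the authors background-corrected and loess-normalized with spike-in weights in limma (version not given in the sources used here). Each was turned to own over mix-stage RNA by the dyes in the labels. Values exist for 44123 of 45220 features, and the 27263 probes with a symbol in the platform annotation were averaged per symbol. Of these, 19293 were matched through accessions in the RefSeq table of WBcel235, and 96 took a different symbol from it. Probes of the homeobox genes kept the platform symbol, so they were named by another rule than the remaining probes. The homeobox genes have 114 probes, 86 matched by accession.

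The 8 arrays were fitted together in limma 3.58.1 (R 4.3.3; lmFit, eBayes), each stage having its own coefficient, with Benjamini-Hochberg adjustment over 15077 genes. The procedure was tested on simulated data that kept the spread of each gene. Between the stages, 23.9% of genes given a log2 change of 1 were called, 65.7% at a change of 2 and 90.9% at 3. In dauers against mix-stage the shares were 50.7%, 85.1% and 98.5%. Changes of 1 were thus often missed, above all between the stages. Named were the homeobox genes called in a comparison, the Hox cluster, the gene of largest difference in each class, named genes whose probes disagreed, and called genes of the context lists; others were named after their values were seen. The homeobox genes and the context lists (touch receptor, GABA, AFD, AIY, pan-neuronal, oocyte and early embryo, zygotic embryo, pharyngeal muscle, dauer markers, other homeobox genes) were chosen with earlier results of these data known. Alternatives covered scaling, dye, probe summaries, robust fitting, the replicate number as a block and leaving out each replicate. The number of arrays limits the precision. Signal intensities, slides, scan dates and protein or promoter sequences were not used here.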

Additional observations from a re-analysis of the deposited data

Results flagged for a closer look

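In 118 groups of 4 arrays, 1 per homeobox gene and stage, 7 held an array far from the others by Dixon's criterion (the gap to the nearest array over the whole range), where chance gives about 1 in 20 groups. In dauers these were ceh-20, at -2.35 in replicate 2 with the others at 0.47 to 1.04, ceh-28, at -1.13 in replicate 3 with the others at 0.05 to 0.16, and ceh-49, at 0.54 in replicate 2 with the others at -0.52 to -0.41. In dauer exit they were ceh-6, at -1.06 in replicate 4 with the others at 0.36 to 0.62, ceh-43, at 0.38 in replicate 4 with the others at -0.60 to -0.45, ceh-49, at -1.58 in replicate 1 with the others at -0.76 to -0.67, and unc-4, at 0.64 in replicate 2 with the others at -0.03 to 0.03.

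Dauers and dauer exit differed in their ratio to mix-stage for ceh-48 by the test of the difference itself (1.33, adjusted p = 0.042 in limma). For ceh-37, every dauer array was above mix-stage and every dauer-exit array below it; the difference between the stages was 0.78, and its test missed the threshold (adjusted p = 0.071).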

How the results depend on the processing

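With all features as probes, each probe was tested alone and a gene was called by the median adjusted p of its probes. For the count of homeobox genes called between dauers and dauer exit (1), the value was 0 with all features as probes, with arrays centred and scaled, with quantile normalization between arrays, with the probe of largest mean absolute ratio and within Cy3 or Cy5 arrays, and 0 to 2 when 1 replicate was left out. In dauers against mix-stage (4) the count was 2 within Cy5 arrays and 2 to 5 with a replicate left out. After centring, 5 homeobox genes were called higher and 1 lower. With centring and scaling, the dye term or the median of probes, 4 were higher and 1 lower. With all features as probes or within Cy3 arrays, 3 were higher and 0 lower. In dauer exit against mix-stage (3) the count was 1 with all features as probes, 1 after centring, 0 within Cy3 or Cy5 arrays and 0 to 3 with a replicate left out. After quantile normalization 1 homeobox gene was called higher and 3 lower.

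Over all genes between the stages, 321 were called higher and 283 lower. With all features as probes these were 212 and 178, within Cy5 arrays 0 and 0, within Cy3 arrays 233 and 58, and with a replicate left out 131 to 521 and 146 to 371. In dauers against mix-stage 742 were higher and 2054 lower. Within Cy5 arrays they were 235 and 2194, within Cy3 arrays 941 and 853, and with a replicate left out 420 to 799 and 1406 to 2474. In dauer exit against mix-stage 69 were higher and 1367 lower. Higher calls were 38 with all features as probes, 206 after centring and scaling, 115 after centring, 19 within Cy3 arrays, 11 within Cy5 arrays, 253 after quantile normalization, and 17 to 90 with a replicate left out. Lower calls were 655 within Cy3 arrays, 610 within Cy5 arrays, 2083 after quantile normalization, and 678 to 1771 with a replicate left out. Centring moved each array by its own median, which lay between -0.15 and -0.03. The mean shift was 0.08 upward over the dauer arrays and 0.10 upward over the dauer-exit arrays. The within-dye and left-out fits use fewer arrays, and the cause of the other shifts was not tested.

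Whether the replicate numbers pair dauer with dauer-exit samples was not settled. Deviations from the stage mean correlated at -0.15 to 0.23 for samples with the same number. Only 2 of 8 samples correlated best with their own number. The dye was not removed from these deviations, and samples numbered 2 and 4 differ in dye between the stages. The correlations therefore cannot decide on pairing. With the replicate number as a block, 0 homeobox genes were called between the stages, ceh-48 had an adjusted p of 0.092, and 236 genes were higher and 253 lower.

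For 12 single homeobox genes in each comparison, 646 of the alternative values kept their side of the threshold, 45 lost it, 5 gained it and 0 turned the direction of a called value. Most of these values belong to results that were not called. Only a called result can lose its call, so the 45 losses are to be set against the called results alone. Between the stages ceh-48 lost its call in 13 of 20 alternatives. In dauers against mix-stage ceh-48, mec-3, pal-1 and ceh-2 lost it in 1, 3, 3 and 4 of 19. In dauer exit ceh-37, ceh-49 and pal-1 each lost it in 7 of 19. Alternatives on probe brightness, background and slide were not run, since signal intensities and slides were not used here.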
